A study of Homo sapiens with 10 samples.

Results

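The genes examined here are 10 regulators of the cell cycle, namely the D-type cyclins CCND1, CCND2 and CCND3, the E-type cyclins CCNE1 and CCNE2, the cyclins CCNA2 and CCNB1, and the kinases CDK4, CDK6 and CDK2. Poly(A) 3′-sequencing reads the 3′ ends of polyadenylated transcripts, and a peak of such reads marks a position at which transcripts were cleaved and polyadenylated or at which the oligo(dT) primer annealed elsewhere. A peak was assigned to a gene if its summit lay in the GENCODE 44 gene body or up to 600 bp past the 3′ end. By this rule 93 of the 178837 peaks belonged to the 10 genes. No measured value entered the choice of the genes, but earlier results of these data were known when they were chosen.

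The libraries came from IMR-32, a human neuroblastoma cell line. Cells were transduced with virus carrying an shRNA and selected with puromycin. CDK12 was targeted by CDK12 sh22 and CDK12 sh98, CDK13 was targeted by CDK13 sh701 and CDK13 sh704, and the control was shGFP, with 2 libraries for each of these constructs and 10 in all. The study asked which of these transcriptional kinases affects the use of poly(A) sites. The authors merged the reads of all 10 libraries, 8 of them from knockdown cells, before calling peaks, and each peak has a value for the pool alone. The knockdown and control cells could therefore not be compared, and no replicate spread can be given. Nor can the 2 processing batches of the study be told apart. The study first downsampled the libraries to the size of the smallest, and that size is not known. In such a pool of cells, fewer cells expressing a gene and less RNA per cell also cannot be told apart.

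Cyclins are the regulatory subunits of cyclin-dependent kinases and rise and fall through the cell cycle. D-type cyclins with CDK4 or CDK6 phosphorylate the retinoblastoma protein in G1, E-type cyclins with CDK2 drive entry into S phase, cyclin A serves S phase and G2, and cyclin B with CDK1 drives mitosis. The 3′ UTRs of several of these mRNAs are long and carry AU-rich elements and microRNA sites, so the choice between tandem poly(A) sites, which lie one after another in the same 3′ UTR, decides which of these elements the mRNA contains. Amplification or high expression of CCND1 and CDK4 is known in neuroblastoma.

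The position of cleavage was read as the 3′ edge of a peak on the strand of the gene, since reads of this kit start at the poly(A) tail and run into the transcript. Its sequence context is shown for the sites on which the account of the 3′ UTRs rests. Capitals mark AATAAA or ATTAAA, the main polyadenylation signals, where they started 35 to 15 bp upstream of the edge. Each line ends at the 3′ edge, runs 5′ to 3′ on the strand of the gene and was read from GRCh38.
CCND1 site 4: gaaagtctagaAATAAAactggtaaaaccc
CCND3 site 1: gatgattgtgaAATAAAactggctttggct
CCNB1 site 2: gttAATAAAacaatactcaaatacaaaagg
CDK6 site 5: agtgagtaaaattcATTAAAttccaagttt
CCNA2 site 1: gatAATAAAttgatttggaaaactttgcaa
These lie at chr11:69654443-69654472 (plus strand), chr6:41934940-41934969 (minus strand), chr5:69178218-69178247 (plus strand), chr7:92604929-92604958 (minus strand) and chr4:121817365-121817394 (minus strand). The first 4 end 2 to 8 bp from an annotated transcript end of their gene, and the last ends 921 bp before it.

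For contrast, the strongest peaks of CCND1 and CDK4 had neither main signal in that window. Capitals here mark 1 of the 10 weaker hexamers searched, and the CDK4 line holds none of them.
CCND1 site 1: aaaagCATAAAaacattttaaaaacataga
CDK4 site 1: aagaagggactttcctgcaaaaccttaaag
They lie at chr11:69651700-69651729 (plus strand) and chr12:57748137-57748166 (minus strand).

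Of the 93 peaks, 23 were 3′ end peaks, in the 3′ UTR or just past the gene, 4 lay in other exons and 66 in introns. A 3′ end peak was found for 9 of the 10 members, and 68.7% of all protein-coding genes had one. All 23 were in the terminal 3′ UTR or the 600 bp past it. Of the 9 members with such a site, 7 had at least 2 tandem sites, against 53.6% of protein-coding genes with a site, and 4 had at least 3, against 25.5%. These 4 were CDK6 with 5 sites, CCND1 with 4, and CCNA2 and CDK4 with 3 each. CCND3, CCNB1 and CDK2 had 2 sites, and CCNE1 and CCNE2 had 1.

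The list gives no strand. Of the 23 3′ end peaks, 11 (47.8%, 95% Wilson interval 29.2% to 67.0%) lay in a gene of the other strand, whose reads cannot be told apart from those of the member. Those neighbours were LTO1 at CCND1, INTS8 at CCNE2, EXOSC9 at CCNA2, TSPAN31 at CDK4 and PMEL at CDK2. Without these peaks 12 3′ end peaks were left, 3 members had at least 2 tandem sites, namely CCND3, CCNB1 and CDK6, and CCNE2, CCNA2 and CDK4 had none. A gene of the other strand was taken to include the 600 bp past its 3′ end. Neither the share of peaks in such a gene nor the counts without them were computed over all protein-coding genes. All intervals given cover counting error only.

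The size of each peak is given as its pileup, the number of reads covering the summit once each had been extended to 100 bp. The pileup was recovered from the deposited fold and p-value. Over the whole list it ran from 3 to 200 with a median of 9, and 200 is the number of start positions on both strands that an extension of 100 bp can cover. If 1 read per position and strand was kept, pileups count positions and understate the most abundant transcripts. The intervals on pileups would then belong to counts of positions. An order by pileup, of genes or of sites, need not be an order of transcript abundance. The setting for duplicate reads is not given in the sources used here. The largest 3′ end pileup of a gene had a median of 24 over the 13760 protein-coding genes with such a peak, with a 25th percentile of 16, a 75th of 33 and a maximum of 114. Each transcript is read at its end, so pileups are not divided by gene length.

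By this measure the order of the members was CDK4 (66 reads, exact 95% Poisson interval 51.0 to 84.0), CCNE2 (61, 46.7 to 78.4), CDK6 (56, 42.3 to 72.7), CCNB1 (52, 38.8 to 68.2), CCND1 (49, 36.3 to 64.8), CCNA2 (46, 33.7 to 61.4), CCND3 (39, 27.7 to 53.3), CDK2 (37, 26.1 to 51.0), CCNE1 (22, 13.8 to 33.3) and CCND2, with no peak. The intervals of all neighbours in this order from CDK4 to CCNE1 overlapped, and they could not be told apart. The interval of CCNE1 lay below those of the 6 strongest genes, and the interval of CDK2 lay just below that of CDK4. CDK4 stood at the 98.9th percentile of genes with a 3′ end peak, CCNE2 at the 98.1st, CDK6 at the 96.6th, and CCNE1 at the 43.3rd. For CDK4, CCNE2, CCNA2 and CDK2 the strongest peak was in a gene of the other strand, and the largest pileup of CDK2 outside such a gene was 16.

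**Figure D1:**
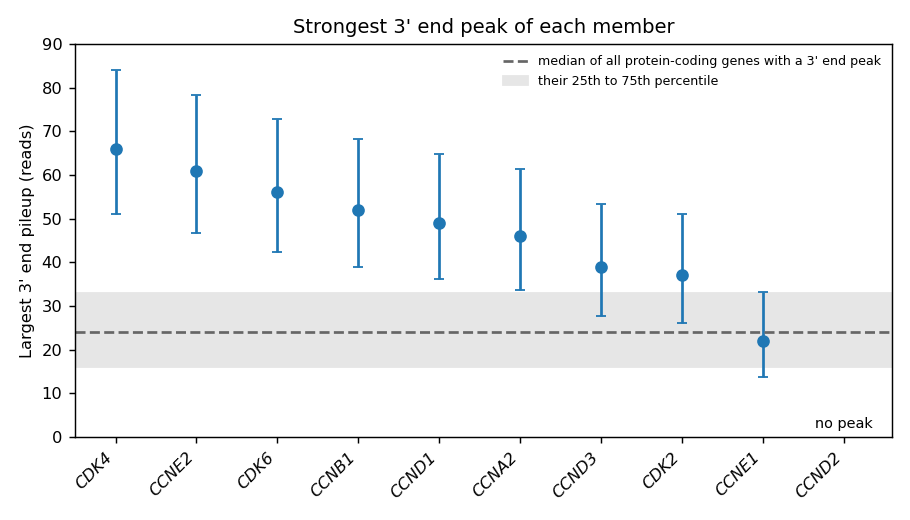
Largest 3′ end pileup of each gene in reads, with exact 95% Poisson intervals as bars; the dashed line is the median of 24 over all protein-coding genes with a 3′ end peak and the grey band their 25th to 75th percentile, 16 to 33. CDK4 is highest at 66, CCNE1 at 22 is the only gene with a peak under the median, and CCND2 has no peak.

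CCND1 encodes cyclin D1, the G1 cyclin that couples growth signals to CDK4 and CDK6, and lies at chr11:69641156-69654474 on the plus strand (ENSG00000110092). All 4 of its peaks were in the terminal 3′ UTR of 3192 bp, and none was found in its introns. Site 1 had a pileup of 49 and ended 447 bp past the stop codon, where CATAAA stood 24 bp upstream. Site 2 had a pileup of 24 at 2137 bp, and site 3 a pileup of 46 at 2692 bp, neither with any of the 12 hexamers within 100 bp. Site 4 had a pileup of 47 at 3190 bp, 2 bp before the annotated end, with AATAAA 18 bp upstream. The heights of the first and the last site did not differ beyond counting error (36.3 to 64.8 and 34.5 to 62.5). Sites 2 to 4 lie in LTO1 on the other strand, and no main signal was found in the window on that strand at any of them. Site 1 lies outside LTO1, but its peak is 376 bp wide and covers a run of 10 adenines from the summit on. Whether it marks cleavage or priming on these adenines was not tested. A window of 10 bases with 9 or more adenines was sought from the summit to 10 bases past the edge. It was found at 5 of the 23 3′ end peaks (21.7%, 9.66% to 41.9%). The 5 were CCND1 site 1, CCNE2 site 1, CCNA2 site 3, CDK4 site 1 and CDK6 site 4. Without a gene of the other strand it was 2 of 12 (16.7%, 4.70% to 44.8%), against 18.8% of such peaks of all protein-coding genes.

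CCND3 encodes cyclin D3, the D-type cyclin best known from lymphocytes, and lies at chr6:41934934-42050357 on the minus strand (ENSG00000112576). Its 3′ UTR of 1006 bp ended in site 1, with a pileup of 33, 6 bp before the annotated end and with AATAAA 18 bp upstream. Site 2 was of similar height, with a pileup of 39, and lay 428 bp past the annotated end with AATAAA 93 bp upstream, outside the window. No gene of the other strand lay at either. A further peak with a pileup of 30 lay just outside the limit of 600 bp, with its summit 643 bp past the end, whereas the summit of site 2 lay at 330 bp. The same limit cut off a peak of 19 reads at 730 bp past CDK4, whose last site inside it had its summit at 302 bp, and the last site of CDK2 was inside at 571 bp. Among the other 7 members, the nearest peak beyond the limit was 4859 bp past CCNA2.

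CCND2 encodes cyclin D2 and lies at chr12:4269771-4305353 on the plus strand (ENSG00000118971). It had no peak of any class in its 35583 bp and none within 10 kb past its end, although its terminal 3′ UTR is 5344 bp long. It was the only member without a peak. The smallest pileup in the list was 3, so that transcripts with fewer reads at a position would not be listed, and the absence of a peak says only that none passed the threshold of the caller.

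CDK4, the G1 kinase partner of the D-type cyclins, lies at chr12:57747727-57756013 on the minus strand (ENSG00000135446). Its 3 peaks all fell at the 3′ end, with a pileup of 66 at 388 bp past the stop codon, 32 at 860 bp and 29 at 1147 bp, and the last 2 were 62 bp and 349 bp past the annotated end. None had a main signal in the window on the strand of CDK4. All 3 lay in TSPAN31, which converges on CDK4 from the other strand and encodes a tetraspanin. Read on that strand, site 3 had AATAAA 32 bp from its other edge, while sites 1 and 2 had no main signal in the window, and site 2 ended 23 bp before an annotated end of TSPAN31. The high rank of CDK4 therefore rests on peaks whose strand is not known. Site 1 also had 9 adenines in a window of 10 bases from the summit on. Whether it marks cleavage or priming on these adenines was not tested either.

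CDK6, the second G1 kinase, lies at chr7:92604921-92836573 on the minus strand (ENSG00000105810) and has by far the longest 3′ UTR of the members, 10219 bp. Site 1 had a pileup of 14 at 672 bp from the stop codon, with AGTAAA 27 bp upstream. Sites 2, 3 and 4 had pileups of 23 at 3025 bp, 23 at 8266 bp and 25 at 8489 bp. Site 5 had a pileup of 56 at 10211 bp, 8 bp before the annotated end, with ATTAAA 15 bp upstream. The distal site thus had the highest pileup, and its interval of 42.3 to 72.7 did not overlap those of the other 4 sites. No gene of the other strand overlapped any of the 5, although site 5 also had AATAAA 25 bp from its other edge on that strand. Sites 2, 3 and 4 were the only 3′ end peaks of the members with 7 or more adenines in the 10 bases downstream, with 8, 7 and 9 of them, and none had a main signal in the window. Such a run of adenines was found at 14.3% of 3′ end peaks of all protein-coding genes, with peaks in a gene of the other strand left out. Here it was found at 3 of 23 (13.0%, 4.54% to 32.1%), or 3 of 12 (25%, 8.89% to 53.2%) with such peaks left out.

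CCNE1, a partner of CDK2 at the start of S phase, lies at chr19:29811991-29824312 on the plus strand (ENSG00000105173). It had a lone 3′ end site with a pileup of 22, 540 bp from the stop codon and 5 bp past the annotated end, with AATAAA 31 bp upstream. CCNE2, its paralog, lies at chr8:94879770-94896678 on the minus strand (ENSG00000175305). It had a lone peak with a pileup of 61, 1427 bp into a 3′ UTR of 1862 bp and 19 bp past the end of a shorter annotated transcript. That peak had no main signal in the window on the strand of CCNE2, where the nearest stood 55 bp upstream of the edge. On the other strand it ended 16 bp before the end of INTS8, a subunit of the Integrator complex, with AATAAA 23 bp upstream. The 61 reads cannot be divided between CCNE2 and INTS8, and the E-type cyclins could not be ordered.

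CDK2, the kinase of the E- and A-type cyclins, lies at chr12:55966781-55972789 on the plus strand (ENSG00000123374). Site 1 had a pileup of 37 and ended 43 bp past the annotated end, with ATTAAA 73 bp upstream. Site 2 had a pileup of 16, 628 bp past the end by its edge, with AATAAA 19 bp from its other edge on the other strand. PMEL, a melanosome gene, overlaps CDK2 on the other strand at site 1, but its nearest annotated end was 11361 bp away.

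CCNA2, the cyclin of S phase and G2, lies at chr4:121816444-121823883 on the minus strand (ENSG00000145386). Site 1 had a pileup of 29 at 273 bp past the stop codon with AATAAA 26 bp upstream. Site 2 had a pileup of 46 at 926 bp, and site 3 a pileup of 43 at 1342 bp, 148 bp past the annotated end. All 3 lay in EXOSC9 or up to 600 bp past its end. EXOSC9, a subunit of the RNA exosome, converges on CCNA2. On the strand of EXOSC9, site 2 ended 13 bp past an annotated end with AATAAA 30 bp upstream. Site 1 had ATTAAA 28 bp upstream on that strand, but ended 566 bp past the nearest annotated end of EXOSC9. Site 1 thus had a main signal in the window on both strands. Site 2 had one on the strand of EXOSC9 alone, with AATAAA 54 bp upstream on the strand of CCNA2.

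CCNB1, the mitotic cyclin, lies at chr5:69167135-69178245 on the plus strand (ENSG00000134057). Its 2 tandem sites both had AATAAA in the window, 35 bp and 26 bp upstream, and no gene of the other strand. The proximal site had a pileup of 52 at 122 bp from the stop codon (38.8 to 68.2), and the distal site one of 25 at 616 bp, 2 bp past the annotated end (16.2 to 36.9). The proximal site had the higher pileup and the intervals did not overlap, the reverse of the order in CDK6. Whether more transcripts ended there cannot be told if pileups count positions.

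A main signal in the window was found at 7 of the 23 3′ end peaks (30.4%, 15.6% to 50.9%), against 53.9% of 3′ end peaks of all protein-coding genes. The shares over all protein-coding genes leave out peaks in a gene of the other strand, as 11 of the 23 were. With a position 50 bp past the summit in place of the edge, added after seeing the data, it was 6 of 23 (26.1%, 12.5% to 46.5%) against 31.9%. Among the 12 without a gene of the other strand, from the edge, it was found at 5 (41.7%, 19.3% to 68.0%). The 12 hexamers were also searched up to 100 bp upstream, and at least 1 was found at 16 of 23 (69.6%, 49.1% to 84.4%), against 85.3%. Without a gene of the other strand it was 9 of 12 (75%, 46.8% to 91.1%). An edge within 50 bp of an annotated transcript end was found at 7 of the 23 (30.4%), against 53.5%. Without a gene of the other strand it was 4 of 12 (33.3%, 13.8% to 60.9%). Read from the other edge on the other strand, a main signal was found at 6 of the 23 (26.1%, 12.5% to 46.5%). Without a gene of the other strand it was 2 of 12 (16.7%, 4.70% to 44.8%), against 5.28% of background peaks, which also lacked one. Both a main signal in the window and an annotated end of the same gene within 50 bp were found at 5 peaks. They were CCND1 site 4, CCND3 site 1, CCNE1 site 1, CCNB1 site 2 and CDK6 site 5. At 12 peaks neither strand held a main signal in the window, and these included CCND1 site 1, CDK4 site 1 and CDK6 sites 1 to 4. Neither of the last counts was made over all protein-coding genes, so they cannot be called particular to the members.

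Tandem sites bear on the elements an mRNA carries, and the terminal 3′ UTRs were searched on the strand of the gene for the AU-rich pentamer ATTTA and for matches to the seeds, bases 2 to 8, of 4 microRNAs known for cell cycle targets. Overlapping matches were counted. The mature sequences, from RefSeq (GRCh38.p14), are shown with the seed in capitals, since their matches are the letters located in the 3′ UTRs. No 2 of them share a seed.
hsa-miR-16-5p: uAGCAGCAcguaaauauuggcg
hsa-miR-17-5p: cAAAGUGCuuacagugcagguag
hsa-miR-34a-5p: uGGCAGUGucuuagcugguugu
hsa-let-7a-5p: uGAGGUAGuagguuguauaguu
The DNA letters searched were TGCTGCT for miR-16, GCACTTT for miR-17, CACTGCC for miR-34a and CTACCTC for let-7a.

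In CCND1 all 7 ATTTA lay after site 1, as did the miR-17 match at 1014 bp and the miR-16 match at 2033 bp from the stop codon, both before site 2. An mRNA ending at site 1 would hold none of them. Of the 3326 3′ UTRs of protein-coding genes at least as long, cut to the same 3192 bp, 96.2% held ATTTA, 42.1% the miR-17 match and 38.3% the miR-16 match. These letters are thus common in 3′ UTRs of this length. In CDK6 all 26 ATTTA lay after site 1. Its matches for miR-34a were at 1088 bp and 9181 bp, for miR-17 at 5051 bp and for miR-16 at 5473 bp and 6383 bp, all of them before the strong site 5. Of the 173 3′ UTRs as long as that of CDK6, 52.6% held the miR-34a match, 80.3% the miR-17 match and 67.6% the miR-16 match. In CCNB1, 2 of the 4 ATTTA lay before and 2 after the proximal site, and 60.6% of 3′ UTRs of that length held the pentamer.

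CCNE1 had 2 miR-16 matches, at 247 bp and 485 bp, in a 3′ UTR with no tandem site, and 9.49% of 3′ UTRs of that length held at least 1. CCND3 had a miR-16 match at 614 bp, before its first site, with 16.2% of 3′ UTRs of its length holding one. CCNE2 had a miR-34a match at 123 bp (17.1% of 3′ UTRs of its length) and 11 ATTTA, of which 10 were before its peak (89.5%). CCND2, which had no peak, held miR-17 and miR-16 matches at 968 bp and 1764 bp (58.9% and 50% of 3′ UTRs). CCNA2 had 3 ATTTA, all after its first site (80.0%), and CDK2 had 2, both before it (79.2%). CDK4 held no ATTTA (69.3% of 3′ UTRs of its length did) and none of the seed matches. No let-7a match was found in any of the 10, and 3.18% to 47.4% of 3′ UTRs of their lengths held one. These are matches of letters, and no binding was measured.

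Introns held 66 of the 93 peaks, and 50 of these were in CDK6 and 10 in CCND3, the longest members. The rest were 3 in CCNB1, 2 in CCNE1 and 1 in CDK2, so that 5 of the 9 members with a 3′ end peak had an intronic peak, against 78.7% of protein-coding genes with an intron and such a peak. CCND1, CCNE2, CCNA2 and CDK4 had none. Per 10 kb of intron the members had 1.62 intronic peaks together, against 0.936 over all protein-coding genes, those without a 3′ end peak included. CDK6 had 2.28 and CCND3 0.912, while CCNE1 had 2.03 in 9861 bp of intron, CCNB1 3.46 in 8678 bp and CDK2 4.71 in 2122 bp. Among the 676 protein-coding genes of 200 to 300 kb, the number of intronic peaks had a median of 23. The 25th percentile was 6 and the 75th was 34.25, and CDK6 had 50. The genes of this length were not limited to those with a 3′ end peak, which CDK6 had. Among the 991 genes of 100 to 130 kb the median was 12, and CCND3 had 10.

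Intronic peaks were lower than 3′ end peaks, with a median pileup of 11 (5 to 22) against 33 (14 to 66). Over all protein-coding genes these medians were 8 and 18, with peaks in a gene of the other strand left out. Left out in the same way, the medians of the members were 10.5 and 25. The shares over all protein-coding genes below leave out the same peaks. Of the 66, 48 had 7 or more adenines in the 10 bases downstream (72.7%, 61.0% to 82.0%), against 70% of intronic peaks of all protein-coding genes. The share was 37 of 50 in CDK6 and 8 of 10 in CCND3, and it was 3 of 3 in CCNE1 and CDK2 together but 0 of 3 in CCNB1. Only 4 intronic peaks had a main signal in the window (6.06%, 2.38% to 14.6%), against 11.2%. At least 1 of the 12 hexamers within 100 bp stood upstream of 38 (57.6%, 45.6% to 68.8%), against 49.7%. None of the 66 ended within 50 bp of an annotated transcript end, as 0.403% did over all protein-coding genes. A longer stretch of 25 bases with at most 3 other than adenine, the kind by which the study screened peaks, was found at 3. This was 4.55% (1.56% to 12.5%), against 8.62%. The study removed peaks that had such a stretch and no hexamer. All 3 had none of the 12 within 100 bp, and leaving them out left 90 of the 93 peaks. The list used here thus still held peaks of the kind that the study removed. Whether the intronic peaks mark cleaved transcripts or priming on genomic adenines was not tested.

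**Figure D2:**
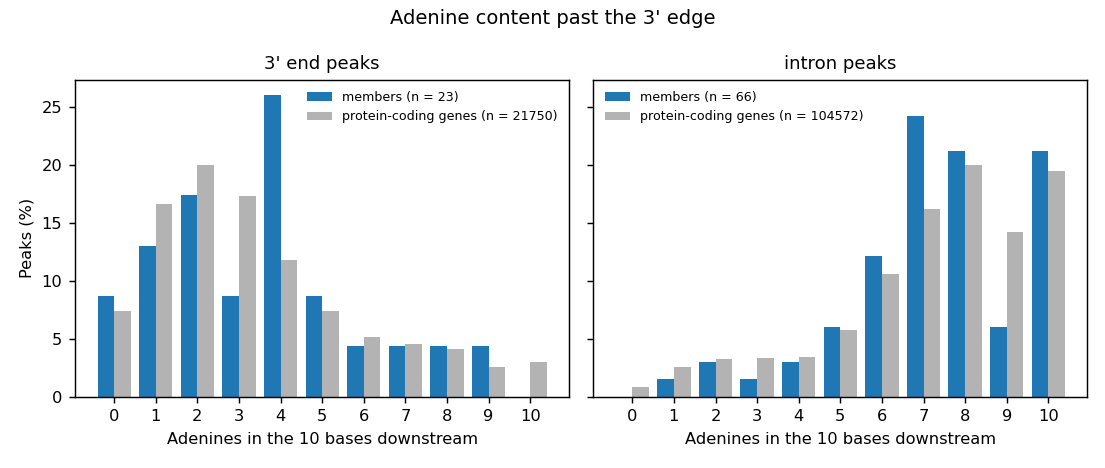
Share of peaks in percent by the number of adenines in the 10 genomic bases downstream of the 3′ edge, for the members (blue) and for all protein-coding genes (grey), with 3′ end peaks on the left and intronic peaks on the right. Of the member peaks, 3 of 23 at 3′ ends and 48 of 66 in introns have 7 or more. The grey bars leave out peaks in a gene of the other strand, and the blue bars do not.

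In CDK6 the peaks were spread over the gene. Intron 4 held 17 in 54090 bp, intron 3 held 12 in 48902 bp, intron 5 held 10 in 48339 bp and intron 2 held 8 in 58259 bp. The first intron, of only 2787 bp, held 2, which had pileups of 12 and 22 at 808 bp and 2336 bp from the gene start, and the latter was the highest intronic pileup of all members. These had 1 and 2 adenines downstream and no main signal in the window. Most of the peaks farther from the start had 7 or more. The 37 with 7 or more had a median pileup of 12 (5 to 20), and the 13 with fewer had one of 10 (7 to 22). A lncRNA on the other strand (ENSG00000286742) lay at 3 of the peaks in intron 5.

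In CCND3, 9 of the 10 intronic peaks lay in introns of its longer transcripts, upstream of the canonical one. The highest had a pileup of 15 at 58930 bp from the gene start, with ATTAAA 24 bp upstream and 4 adenines downstream. The other intronic pileups of CCND3 were 5 to 9. Among the 50 of CDK6, a single peak had a main signal without 7 adenines, in intron 4 at 127590 bp with a pileup of 12. A peak in an exon near the start of CCND3, with a pileup of 5, had AATAAA 19 bp upstream and ended 5 bp before the end of a short annotated transcript. These 3 are shown with the main signal in capitals, since they are the members' peaks outside the 3′ UTR in which the signal stood without an A-rich stretch downstream.
CCND3 intron peak 8: actaaATTAAAaagaaacaaactggtgcat
CDK6 intron peak 28: aaataagaAATAAAaatatatttatttaaa
CCND3 exon peak 1: ggaataactgAATAAAttggttgctgttac
They lie at chr6:41991427-41991456, chr7:92708983-92709012 and chr6:42048004-42048033, all on the minus strand.

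**Figure D3:**
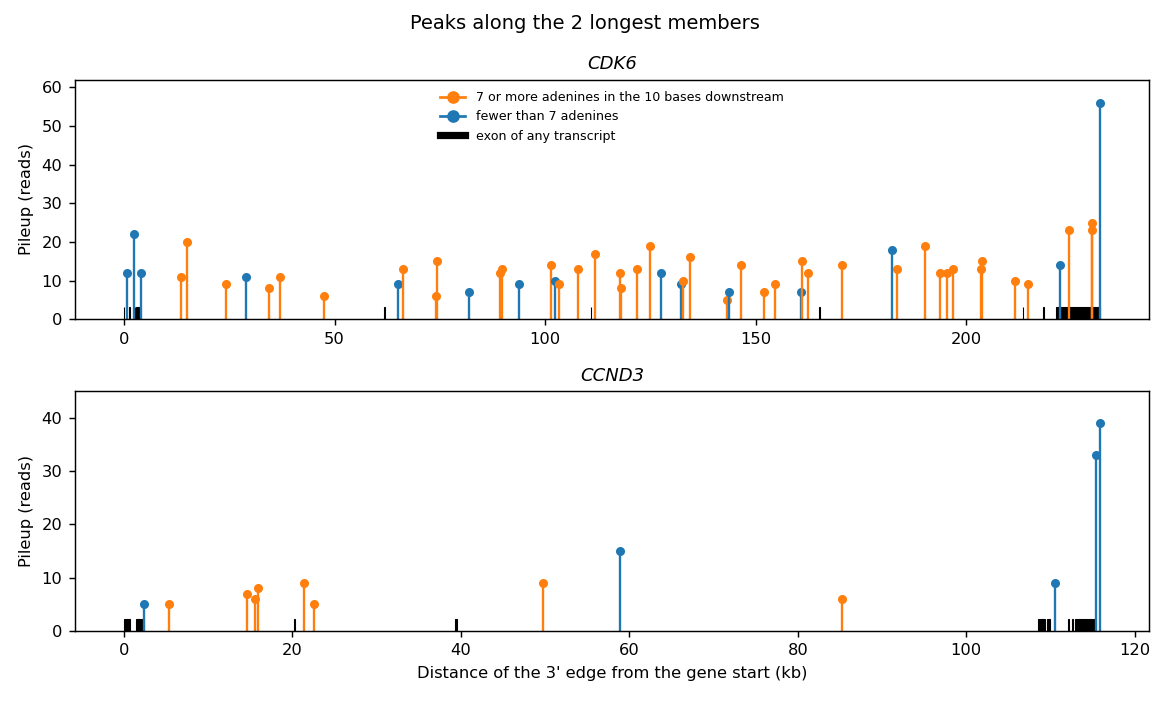
Pileup in reads of every peak of CDK6 and CCND3 by the distance of its 3′ edge from the gene start in kb; orange peaks have 7 or more adenines in the 10 bases downstream, blue peaks fewer, and black marks are exons of any transcript. The highest peaks stand at the 3′ end, 56 in CDK6 and 39 in CCND3, and intronic peaks reach 22 and 15.

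The other 3 peaks in exons outside the 3′ UTR were in exon 2 of CCNA2 (pileup 17), exon 3 of CCNB1 (7) and exon 1 of CDK2 (19), none with a main signal in the window. With the CCND3 peak, 1 of 4 such exon peaks had it. Over all protein-coding genes it was 13.5%, with peaks in a gene of the other strand left out. The CDK2 peak lay 243 bp from the gene start, where PMEL and a lncRNA (ENSG00000258554) run on the other strand, the latter ending 79 bp from its other edge. The intronic peaks of CCNB1, in introns 1, 3 and 5, had pileups of 11, 8 and 13, with 6, 3 and 5 adenines downstream. Those of CCNE1, in introns 4 and 11, had pileups of 5 and 9, and that of CDK2, in intron 5, one of 16. All 3 had 10 adenines in the 10 bases downstream.

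A list of 45 other cell cycle genes gave the setting. Of these, 43 had a 3′ end peak (95.6%, against 68.7% of all protein-coding genes) and 32 had an intronic peak. At least 2 tandem sites were found at 25 of the 45 (55.6%). This share was 36.2% over all protein-coding genes, but 53.6% over those with at least 1 site. Their largest 3′ end pileups had a median of 27, up to 57. The 2 without a 3′ end peak were CCNB3, a cyclin of meiosis, and CDKN2B, which encodes the inhibitor p15. Among the other cyclins and the mitotic kinase, CDK1 (43) and CCNB2 (35) were highest, and among the inhibitors CDKN1C (44) and CDKN2C (43). RBL1 (31) and RBL2 (26) led the pocket proteins, TFDP1 (45) and E2F6 (36) the E2F factors and partners, CCNH (57) and PKMYT1 (49) the regulators of CDKs, and FZR1 (56) and FBXO5 (38) the degradation genes. CDK4 with 66 and CCNE2 with 61 had higher pileups than all 45, each with a neighbour on the other strand. Their intervals, 51.0 to 84.0 and 46.7 to 78.4, held the values of CCNH and FZR1, so these could not be told apart.

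Of the markers of sympathetic neuroblasts reported here, 8 of 8 had a 3′ end peak, from 17 for DBH and 21 for TH over CHGB (27), ISL1 (46), CHGA (48), GATA3 (60) and HAND2 (72) to 73 for MYCN. Of the 11 markers of other cell types reported, 5 had one, with pileups of 6 to 28. They were EPCAM (13), COL1A1 (14), PDGFRA (28), SOX10 (13) and S100B (6), while PTPRC, CD3E, KRT8, CDH1, COL1A2 and DCN had none. The targeted genes had largest 3′ end pileups of 22 (CDK12, 6 sites) and 34 (CDK13, 3 sites) in the pool, which cannot check the knockdown.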

How the data were processed

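Poly(A) 3′-sequencing libraries (QuantSeq REV) of 10 IMR-32 cultures were trimmed, aligned to GRCh38 with STAR (2.5.1b) and randomly downsampled by the authors, who merged all reads and called peaks with MACS2 (2.1.1) after extension to 100 bp. SAMtools and deepTools (2.5.4) are also named in the submitters' processing notes. For each peak the deposited fold is a ratio of pileup to local background, the deposited p-value and q-value are on a −log10 scale, and the deposited score is a display value that was not used. The deposited summit offset was added to the start.

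Members and lists were chosen with earlier results of these data known. Named were all members, their neighbours on the other strand, the targeted genes, the markers, and of each other group the 2 genes with the highest pileup and those without a 3′ end peak. Of the markers, 4 are not reported here. Pileups were recovered from fold and p-value, missing the latter by at most 0.000168 on its scale. GENCODE 44 defined genes, and a 3′ end peak has its summit in a 3′ UTR or up to 600 bp past the gene. The 12 hexamers used by the study were searched within 100 bp upstream of the 3′ edge. Background shares of peaks are over peaks of the same class in protein-coding genes, with peaks in a gene of the other strand left out. Shares have 95% Wilson intervals and pileups exact Poisson intervals. There is a value for the pool alone, so no test was made and every result is a description. Steps were tested on simulated data. Python 3.11.15, numpy 2.4.6, scipy 1.17.1, pysam 0.24.0, samtools 1.23.1 and matplotlib 3.10.9 were used.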

Additional observations from a re-analysis of the deposited data

How the results depend on the processing

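No paired analysis was possible because each peak carries 1 value for all libraries pooled, and for the same reason no replicate could be left out. Of 68 alternatives tried over all results, 53 left a count within 1.5 times its value or a share within its 95% Wilson interval, and 15 did not. With peaks of −log10 q of at least 20, the 93 peaks fell to 14, the 23 3′ end peaks and tandem sites to 13, the members with at least 2 tandem sites from 7 to 3 and the intronic peaks from 66 to 1. Without peaks in a gene of the other strand, the 3′ end peaks and tandem sites fell to 12 and those members to 3. The share of 3′ end peaks with a hexamer, 69.6%, was 17.4% from the summit and 47.8% both within 50 bp and for AATAAA and ATTAAA only. The share of A-rich intronic peaks, 72.7%, was 7.58% from the summit, 84.8% for 6 of 10 bases and 4.55% for the stretch of 25 bases. It was 45.5% at a position 50 bp past the summit that was added once the data had been seen. By that position it was 51.1% over all protein-coding genes, with peaks in a gene of the other strand left out. The summit lies inside the reads, upstream of the edge, by construction. Of the 36 pairs of members with a peak, 26 kept their order by the sum of pileups and 29 by the largest −log10 q. The caller's threshold and the missing strand and depth limit what can be read from any peak.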

Other observations

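The 3′ end peaks of the members were often wide. A width of 200 bp or more, against the 100 bp to which each read was extended, was found at 12 of 23 (52.2%, 33.0% to 70.8%). It was found at 5289 of the 21750 3′ end peaks of all protein-coding genes, with peaks in a gene of the other strand left out. Left out in the same way, it was found at 5 of 12 peaks of the members (41.7%, 19.3% to 68.0%). The widest were those of CCND1 site 1 (376 bp), CCNA2 site 2 (323 bp), CDK6 site 5 (319 bp) and CCNB1 site 2 (312 bp). CCNA2 site 2 and CDK6 site 5 each held 4 copies of AATAAA or ATTAAA inside the peak on the strand of the gene. AATAAA or ATTAAA anywhere inside the peak, a measure added after seeing the data, was found at 13 of the 23 (56.5%, 36.8% to 74.4%). Without a gene of the other strand it was 7 of 12 (58.3%, 32.0% to 80.7%), against 72.3% of such 3′ end peaks of all protein-coding genes. Whether a wide peak joins several cleavage positions was not tested.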
